A study of Mus musculus with 19 samples.

Results

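In mouse liver, 10 genes of the stromal matrix were followed, namely *Dcn*, *Lum*, *Bgn*, *Sparc*, *Fn1*, *Fbn1*, *Efemp1*, *Ecm1*, *Timp2* and *Timp3*. They were taken by symbol, as a chosen list of matrix proteoglycans, matrix glycoproteins and tissue inhibitors of metalloproteinases (TIMPs). They are 10 of the 31053 genes in the count table, and 17068 of those genes had at least 1 count. The RNA came from livers of male C57BL/6 mice (strain given as C57BL6J) aged 6 to 8 weeks at the start, in 3 groups. The PBS group (n = 5) received the vehicle alone, with no vector named in its labels. Both other groups received thioacetamide (TAA), a hepatotoxin that hepatocytes convert to reactive metabolites, for 12 weeks at rising doses. At 10 weeks they were injected with a serotype 8 adeno-associated viral vector (AAV8), and they were sacrificed 4 weeks later. One of them received AAV8 TBG eGFP (AAV-GFP, n = 7), and the other a combination of 2 such vectors, for miR-34b and for miR-34c (AAV-miR-34b/c, n = 7). The TBG promoter is active in hepatocytes, so the vectors were built to express in hepatocytes and not in stromal cells. TAA and a vector were given to the same mice, so in both comparisons with PBS the effects of TAA and of a vector cannot be told apart.

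The matrix of the liver is a network of collagen fibrils, microfibrils and adhesive glycoproteins that thickens in fibrosis, when hepatic stellate cells and portal fibroblasts turn into collagen-producing cells. Small leucine-rich proteoglycans coat collagen fibrils and bind growth factors of the TGF-beta family, glycoproteins such as fibronectin and the fibrillins form scaffolds on which other fibres are laid down, and TIMPs block the metalloproteinases that degrade these fibres. Decorin, lumican, biglycan and SPARC come mostly from stromal cells, whereas hepatocytes secrete the plasma form of fibronectin in large amounts and also make ECM1, a protein that holds latent TGF-beta in check.

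The libraries hold the 3′ ends of polyadenylated transcripts. Values are given as CPM, each count relative to its library total after TMM scaling, and they are not divided by transcript length, so levels of different genes are not ranked. Total counts per library were 2214073 to 4145454 with PBS, 2463842 to 4383805 with AAV-GFP and 2717503 to 5208405 with AAV-miR-34b/c. The labels call the libraries biological replicates, and p-values measure the spread between them. Within groups, 6 library pairs were closer to each other than the other 46, with a coefficient of variation beyond counting noise of 0.0812 to 0.171 against 0.215 to 0.480. They were analysed as separate mice, and calls of members that end when each pair is summed into 1 sample are given below. Mitochondrial genes took 3.73% to 5.65% of the counts with PBS, 4.83% to 9.41% with AAV-GFP and 3.71% to 10.8% with AAV-miR-34b/c. This share exceeded that of every PBS library in replicates 1, 2, 3 and 4 of AAV-GFP and in replicates 3, 4, 5, 6 and 7 of AAV-miR-34b/c. Hepatocyte markers summed to 86189 to 98912 CPM with PBS, 75986 to 90448 CPM with AAV-GFP and 68524 to 108708 CPM with AAV-miR-34b/c, as liver RNA should show. In whole-tissue RNA, fewer cells of a type and less RNA per cell cannot be told apart.

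In AAV-GFP livers, 4 of the 9 members that passed the filter on low counts differed from PBS at an adjusted p under 0.05. *Bgn*, *Lum* and *Timp2* were about 2-fold higher and *Fn1* was about 2-fold lower, while *Dcn*, *Sparc*, *Efemp1*, *Ecm1* and *Timp3* did not pass the test. *Fbn1* had too few counts to be tested. Over all 9522 genes tested, 12.7% were called, 7.54% as higher and 5.19% as lower in AAV-GFP livers. Between both vectors none of the 10 members was called, where 3.36% of 9252 genes were called, 1.95% as higher and 1.42% as lower in AAV-miR-34b/c livers. Of the 9 members tested between AAV-miR-34b/c and PBS livers, *Bgn* was higher and *Fn1*, *Efemp1* and *Ecm1* were lower, where 21.9% of 9290 genes were called, 12.2% as higher and 9.75% as lower. The median log2 fold change of the members tested was -0.14, -0.28 and -0.37 in these 3 comparisons, against -0.01, -0.01 and 0.02 over all genes tested. Collagen type I is given beside the members as the reference of fibrillar matrix: *Col1a1* rose by 2.42 (log2, SE 0.36, edgeR adjusted p = 0.000298) from PBS to AAV-GFP livers and fell by 1.92 (SE 0.29, adjusted p = 0.000898) from AAV-GFP to AAV-miR-34b/c livers. Between AAV-miR-34b/c and PBS livers it differed by 0.51 (SE 0.26, adjusted p = 0.167) and was not called.

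**Figure D1:**
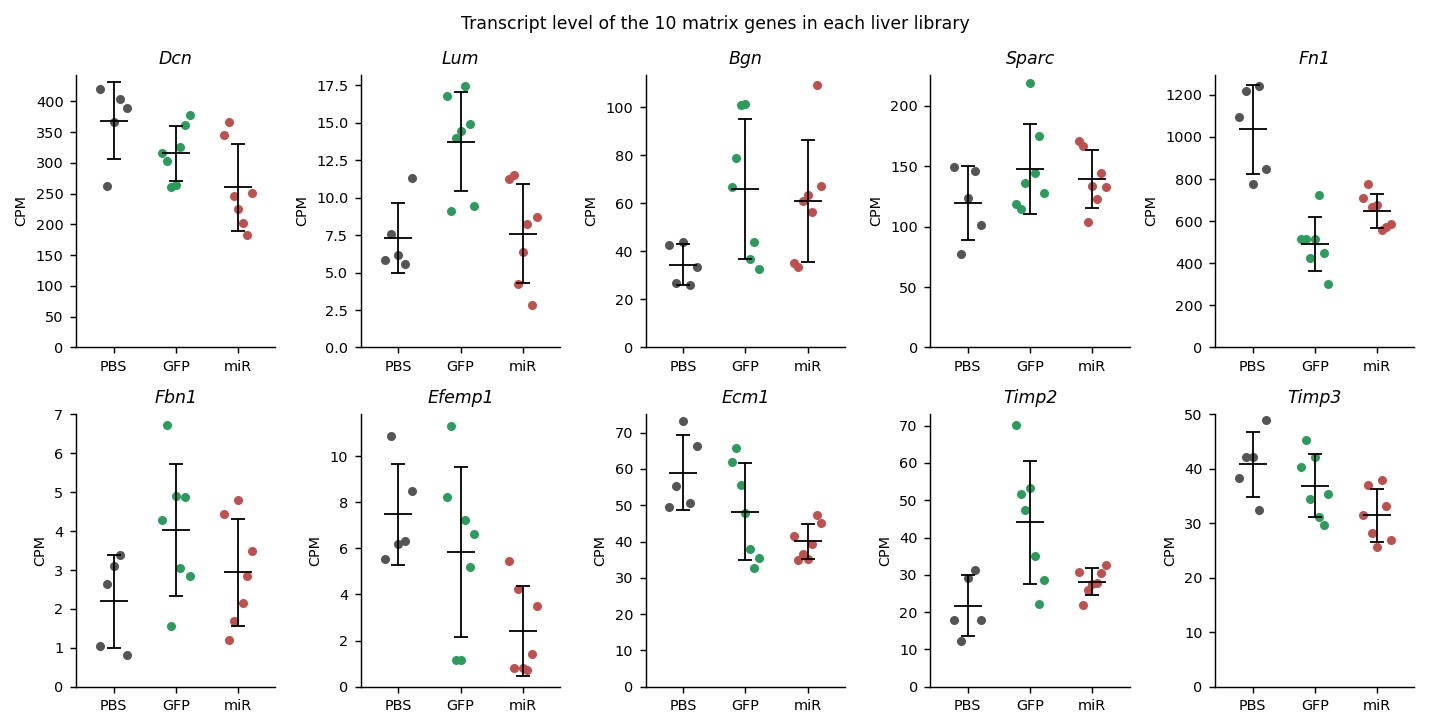
Each point is the CPM (linear axis from 0) of one gene in one library of the PBS (n = 5), AAV-GFP (n = 7) or AAV-miR-34b/c (n = 7) group, and the black bar and whiskers give the mean and the SD. Fn1 in AAV-GFP livers lies below every PBS library, and Bgn in both TAA groups is divided into low and high libraries.

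Decorin, a proteoglycan that binds collagen fibrils and TGF-beta, is encoded by *Dcn* (ENSMUSG00000019929; chr10:97479609-97518143, plus strand, GRCm38). In PBS livers its level was 420, 262, 366, 404 and 389 CPM. The lowest, median and highest levels were 261, 316 and 378 CPM in AAV-GFP livers and 183, 245 and 367 CPM in AAV-miR-34b/c livers. All 3 groups overlapped, with 5 of the 7 AAV-miR-34b/c libraries below every AAV-GFP library and below every PBS library. The difference of AAV-GFP from PBS livers was -0.22 (log2, 95% interval -0.55 to 0.11) and that between the vectors -0.29 (-0.64 to 0.06), and edgeR called neither of them (adjusted p = 0.366 and 0.437). AAV-miR-34b/c livers differed from PBS livers by -0.50 (-0.89 to -0.11), with an adjusted p of 0.0624 and a p of 0.0240 in the exact permutation test of this gene alone. Without PBS replicate 2, or without AAV-miR-34b/c replicate 1 or 2, this last difference passed the test, with adjusted p-values down to 0.0184. It also passed with scaling by library size alone (-0.66, adjusted p = 0.00814), DESeq2 (-0.50, 0.0475), limma-voom (-0.68, 0.0011) and all 3 groups in one fit (-0.50, 0.0438). With the mitochondrial share as a covariate, an alternative chosen after seeing the data, it was -0.05 (adjusted p = 0.852).

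Lumican, which regulates the assembly of collagen fibrils, is encoded by the gene next along the chromosome, *Lum* (ENSMUSG00000036446; chr10:97565128-97572703, plus strand). Counts were low, 14 to 80 per library. PBS livers had 5.87, 7.58, 6.21, 5.57 and 11.3 CPM. AAV-GFP livers had a lowest level of 9.14, a median of 14.4 and a highest of 17.5 CPM, and AAV-miR-34b/c livers 2.84, 8.21 and 11.5 CPM. Of the 7 AAV-GFP libraries, 5 exceeded every PBS library, and 5 of the 7 AAV-miR-34b/c libraries lay below every AAV-GFP library. *Lum* was 0.93 ± 0.26 (log2, SE) higher in AAV-GFP than in PBS livers (edgeR adjusted p = 0.0247, exact permutation p = 0.00505). The call was lost without PBS replicate 1, PBS replicate 4 or AAV-GFP replicate 1 (adjusted p up to 0.0730), with all 3 groups in one fit (0.0542), with close pairs summed (0.0892) and with the mitochondrial share as a covariate (0.175), in a range of 0.00879 to 0.175 over the alternatives. The fold in these last 3 fits was 0.92, 0.92 and 1.0 (log2), as large as in the fit reported. Between the vectors the difference was -0.89 (95% interval -1.49 to -0.30), which had an exact permutation p of 0.00641 but an edgeR adjusted p of 0.0957 over all genes. AAV-miR-34b/c and PBS livers differed by 0.05 (-0.68 to 0.78).

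Biglycan, a proteoglycan of the same family that also acts as a danger signal for immune cells, is encoded by *Bgn* (ENSMUSG00000031375; chrX:73483602-73495933, plus strand). In PBS livers it measured 42.5, 26.7, 43.9, 25.9 and 33.5 CPM. Levels ran from 32.5 over a median of 66.6 to 101 CPM in AAV-GFP livers and from 33.4 over 60.9 to 109 CPM in AAV-miR-34b/c livers. In both TAA groups some libraries lay within the PBS range, 3 of 7 with AAV-GFP and 2 of 7 with AAV-miR-34b/c, and the rest lay above it. *Bgn* was 0.94 ± 0.28 (log2, SE) higher in AAV-GFP than in PBS livers (edgeR adjusted p = 0.0326) and 0.83 ± 0.26 higher in AAV-miR-34b/c than in PBS livers (adjusted p = 0.0333), and the vectors differed by -0.12 (95% interval -0.72 to 0.49). Libraries with a mitochondrial share no higher than in PBS had 32.5 to 43.9 CPM of *Bgn* with AAV-GFP (3 libraries) and 33.4 to 35.2 CPM with AAV-miR-34b/c (2 libraries), whereas those above it had 66.6 to 101 and 56.4 to 109 CPM. With this share as a covariate the differences from PBS were 0.07 (adjusted p = 0.949) and 0.11 (adjusted p = 0.811). Across all alternatives the adjusted p ran from 0.000641 to 0.949 for AAV-GFP and from 0.00238 to 0.811 for AAV-miR-34b/c. Leaving out any of 7 single libraries also ended each call: PBS replicate 2, 4 or 5 for both, AAV-GFP replicate 1, 2, 3 or 4 for the first (adjusted p up to 0.0953) and AAV-miR-34b/c replicate 3, 4, 6 or 7 for the second (up to 0.0936). Summing close pairs ended both calls with folds as large (0.99 and 1.04, adjusted p = 0.143 and 0.0974), and the second was also lost with all 3 groups in one fit (0.0541) and with scaling by library size alone (0.71, adjusted p = 0.0746).

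**Figure D2:**
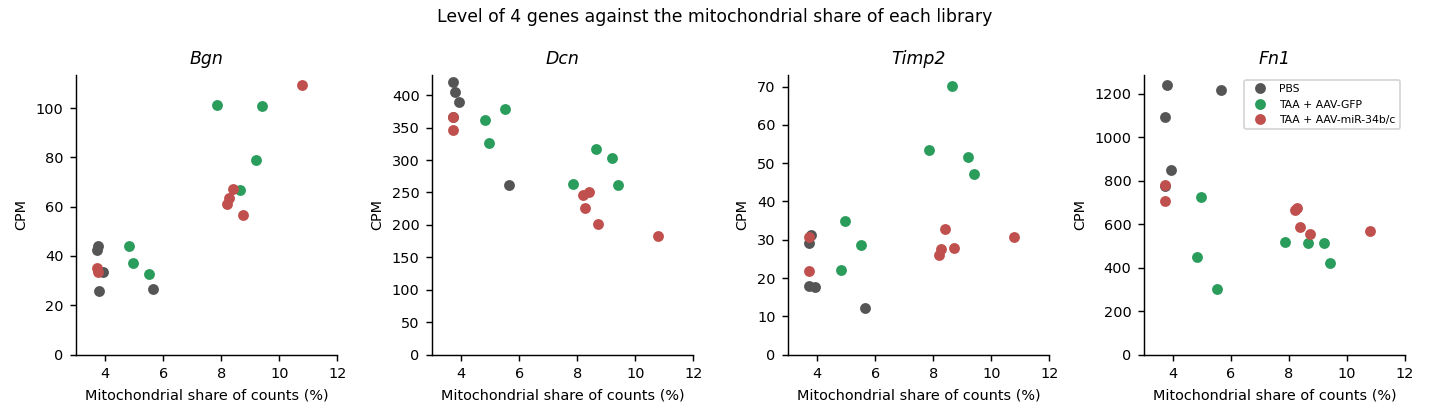
The CPM of Bgn, Dcn, Timp2 and Fn1 (vertical axes, linear from 0) is plotted against the share of counts on mitochondrial genes (horizontal axes, percent), 1 point for each of the 19 libraries, coloured by group. Bgn is high in the 9 libraries with a share above 5.65%, and Dcn is at 183 to 316 CPM there.

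Within groups, the deviation of a library from its group mean was compared with its mitochondrial share over the 19 libraries, which share depth and composition with both measures. Pearson's r was 0.81 for *Bgn* and -0.87 for *Dcn*. It was 0.58 for *Ecm1*, -0.54 for *Lum*, -0.45 for *Sparc* and 0.38 for *Timp2*, and between -0.19 and 0.19 for *Fn1*, *Efemp1*, *Fbn1* and *Timp3*. So *Bgn* and *Dcn*, which encode related proteoglycans, varied in opposite directions within groups (r = -0.66 with each other, n = 19 libraries), whereas *Ecm1* and *Timp2* varied together (r = 0.70). The share of counts on *Gm42418* had medians of 4.45% with PBS, 3.37% with AAV-GFP and 2.08% with AAV-miR-34b/c. Its r was 0.64 for *Fn1*, -0.565 for *Bgn* and 0.50 for *Lum*, and between -0.32 and 0.30 for the other members. The part of this share in the members' differences was not tested.

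SPARC is a matricellular glycoprotein that binds collagen and is secreted by stellate and endothelial cells. Its gene is *Sparc* (ENSMUSG00000018593; chr11:55394500-55423183, minus strand). PBS livers had 150, 77.8, 124, 146 and 101 CPM. The lowest, median and highest levels were 115, 137 and 219 CPM with AAV-GFP and 104, 134 and 171 CPM with AAV-miR-34b/c. The groups overlapped widely. Differences were 0.31 (log2, 95% interval -0.10 to 0.72) for AAV-GFP against PBS, -0.10 (-0.44 to 0.25) between the vectors and 0.22 (-0.16 to 0.60) for AAV-miR-34b/c against PBS, none of them called (edgeR adjusted p = 0.308, 0.853 and 0.392).

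Fibronectin, an adhesive glycoprotein of plasma and matrix, is encoded by *Fn1* (ENSMUSG00000026193; chr1:71585520-71653200, minus strand), which had 948 to 5126 counts per library. In PBS livers its level was 1095, 1218, 778, 1242 and 849 CPM. AAV-GFP livers had a lowest level of 299.5, a median of 513 and a highest of 726 CPM, and AAV-miR-34b/c livers 556, 665 and 778 CPM. Every AAV-GFP library lay below every PBS library, as did 6 of the 7 AAV-miR-34b/c libraries. Among the members tested, *Fn1* was the single one whose AAV-GFP and PBS libraries did not overlap, where 4.77% of all genes tested showed no overlap. *Fn1* fell by 1.07 ± 0.20 (log2, SE) from PBS to AAV-GFP livers (edgeR adjusted p = 0.0019), and the exact permutation test gave 0.00126, which is the lowest value possible with 5 and 7 libraries. This call held in all 22 alternatives, with adjusted p-values from 6.99e-06 to 0.0385. AAV-miR-34b/c livers were 0.68 ± 0.16 below PBS livers (adjusted p = 0.00682), and the call held in 21 of 22 alternatives, the exception being the sum of close pairs (-0.74, adjusted p = 0.0802). Between the vectors *Fn1* was higher by 0.39 (95% interval 0.04 to 0.73) with AAV-miR-34b/c, with an exact permutation p of 0.0134 but an edgeR adjusted p of 0.249, so that the level in AAV-miR-34b/c livers lay between those of the other two groups without being told from AAV-GFP over all genes.

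Fibrillin 1 forms the microfibrils on which elastin is laid down. Its transcript *Fbn1* (ENSMUSG00000027204; chr2:125300594-125507993, minus strand) was scarce, with 2 to 25 counts per library. Levels were 1.04, 2.64, 3.10, 3.39 and 0.81 CPM with PBS, and ranged from 1.55 over a median of 4.29 to 6.72 CPM with AAV-GFP and from 1.19 over 2.84 to 4.80 CPM with AAV-miR-34b/c. AAV-GFP and PBS livers differed by 0.76 in mean log2 CPM (exact permutation p = 0.0770). The vectors differed by -0.48 (log2, 95% interval -1.23 to 0.27, edgeR adjusted p = 0.585). At this depth a 2-fold difference of *Fbn1* between the vectors lay inside the interval in one direction.

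Fibulin 3, a glycoprotein of elastic fibres and basement membranes, is encoded by *Efemp1* (ENSMUSG00000020467; chr11:28853204-28926743, plus strand), with 2 to 42 counts per library. In PBS livers it measured 5.53, 10.9, 6.21, 6.30 and 8.48 CPM. AAV-GFP livers ranged from 1.15 over a median of 6.63 to 11.3 CPM, with replicates 3 and 4 at 1.16 and 1.15 CPM and the other 5 at or above 5.20 CPM. AAV-miR-34b/c livers ranged from 0.71 over 1.42 to 5.46 CPM, all below every PBS library. *Efemp1* was 1.59 ± 0.45 (log2, SE) lower in AAV-miR-34b/c than in PBS livers (edgeR adjusted p = 0.0190, exact permutation p = 0.00884). The call was lost without PBS replicate 2 (adjusted p = 0.0527) and with the mitochondrial share as a covariate (-1.34, adjusted p = 0.123), and over all alternatives the adjusted p ran from 0.00225 to 0.123. AAV-GFP livers differed from PBS by -0.33 (95% interval -1.22 to 0.56), and the vectors differed by -1.28 (-2.38 to -0.17), with an adjusted p of 0.225.

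*Ecm1* (ENSMUSG00000028108; chr3:95734147-95739569, minus strand) measured 49.4, 55.3, 73.1, 50.6 and 66.3 CPM in PBS livers. The lowest, median and highest levels were 32.8, 47.9 and 65.9 CPM with AAV-GFP and 35.0, 39.3 and 47.4 CPM with AAV-miR-34b/c. Every AAV-miR-34b/c library lay below every PBS library, whereas AAV-GFP livers spread over both ranges. With *Efemp1*, this made 2 of the 9 members tested whose AAV-miR-34b/c and PBS libraries did not overlap, where 7.78% of all genes tested showed no overlap. *Ecm1* was 0.55 ± 0.15 (log2, SE) lower in AAV-miR-34b/c than in PBS livers (edgeR adjusted p = 0.0184), with the lowest possible exact permutation p, 0.00126. The call was lost without PBS replicate 3 (adjusted p = 0.0510) and with close pairs summed (-0.50, adjusted p = 0.180), and it was kept with the mitochondrial share as a covariate (adjusted p = 0.0343, in a range of 0.00454 to 0.180 over the alternatives). Differences were -0.28 (95% interval -0.70 to 0.13) for AAV-GFP against PBS and -0.28 (-0.64 to 0.09) between the vectors, neither of them called. AAV-GFP libraries with a mitochondrial share no higher than in PBS had 32.8 to 37.8 CPM, all below every PBS library, and those above it had 47.9 to 65.9 CPM. With this share as a covariate the difference of AAV-GFP from PBS was -0.84 (adjusted p = 0.0732).

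TIMP2 inhibits metalloproteinases and, together with the membrane-bound *Mmp14* product, takes part in the activation of a gelatinase. Its gene is *Timp2* (ENSMUSG00000017466; chr11:118301069-118355740, minus strand). PBS livers had 18.0, 12.2, 29.3, 31.2 and 17.8 CPM. AAV-GFP livers ranged from 22.1 over a median of 47.3 to 70.3 CPM, and AAV-miR-34b/c livers from 21.9 over 27.9 to 32.8 CPM. Of the 7 AAV-GFP libraries, 5 exceeded every PBS library. The AAV-miR-34b/c libraries were the least spread, with an SD of 3.62 CPM against 16.5 CPM with AAV-GFP and 8.19 CPM with PBS. AAV-GFP libraries with a mitochondrial share no higher than in PBS had 22.1 to 35.0 CPM, and those above it had 47.3 to 70.3 CPM. With AAV-miR-34b/c the corresponding ranges were 21.9 to 30.7 and 26.0 to 32.8 CPM. *Timp2* was 1.02 ± 0.28 (log2, SE) higher in AAV-GFP than in PBS livers (edgeR adjusted p = 0.0224, exact permutation p = 0.0139). The call was lost without PBS replicate 1, 2 or 5 or AAV-GFP replicate 1 (adjusted p up to 0.0627), with close pairs summed (1.0, adjusted p = 0.106) and with the mitochondrial share as a covariate, which gave 0.39 (adjusted p = 0.700, in a range of 0.000238 to 0.700 over the alternatives). Between the vectors the difference was -0.65 (95% interval -1.10 to -0.20; exact permutation p = 0.0332), with an adjusted p of 0.111 that passed without AAV-GFP replicate 6 (0.0305). AAV-miR-34b/c livers differed from PBS by 0.38 (-0.09 to 0.84).

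TIMP3, the inhibitor of this family that binds tightly to the matrix and also blocks sheddases, is encoded by *Timp3* (ENSMUSG00000020044; chr10:86300372-86349506, plus strand). Its level was 38.3, 42.2, 42.1, 32.5 and 48.9 CPM with PBS. It ranged from 29.6 over a median of 35.4 to 45.2 CPM with AAV-GFP and from 25.6 over 31.4 to 37.9 CPM with AAV-miR-34b/c. The 3 groups overlapped. The differences were -0.14 (log2, 95% interval -0.49 to 0.21) for AAV-GFP against PBS, -0.24 (-0.56 to 0.08) between the vectors and -0.37 (-0.71 to -0.03) for AAV-miR-34b/c against PBS, none of them called (edgeR adjusted p = 0.616, 0.493 and 0.110). The last had a p of 0.0202 in the exact permutation test of this gene alone, and it was called with scaling by library size alone (-0.51, adjusted p = 0.0356) and with limma-voom (-0.44, adjusted p = 0.0311).

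**Figure D3:**
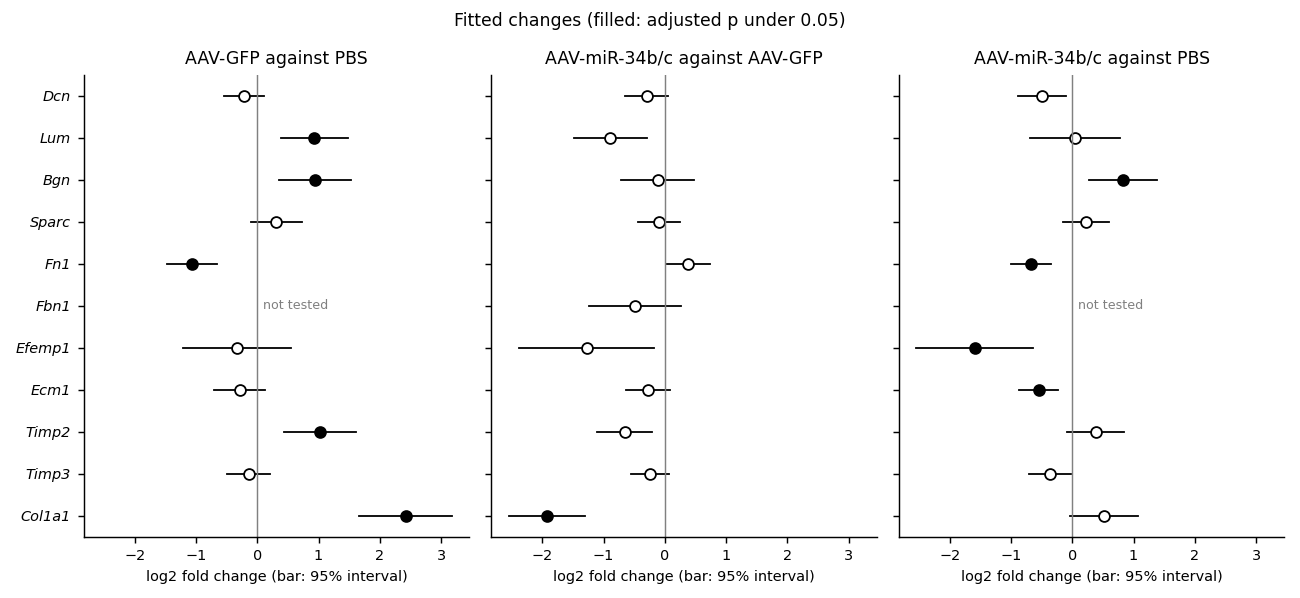
Points give the fitted log2 fold change of each member, and of Col1a1 as a reference, in the 3 comparisons, with bars for the 95% interval. Filled points passed an adjusted p of 0.05 over all genes tested. Lum, Bgn and Timp2 lie near 1 and Fn1 near -1 in the left panel, and no member is filled in the middle panel.

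None of the 10 members passed the test between the vectors with edgeR, but 4 had an unadjusted p under 0.05, namely *Lum*, *Timp2*, *Efemp1* and *Fn1*, where 1414 of all 9252 genes had one. Lower fitted levels with AAV-miR-34b/c were seen for 9 of the 10 members, the exception being *Fn1*, where the median log2 fold change of all genes tested was -0.01. With close pairs summed *Bgn* turned to 0.04. DESeq2 called 0 members and 572 of 12147 genes, and limma-voom with sample quality weights called *Lum* and *Timp2* among 813 of 9252 genes. With the mitochondrial share as a covariate edgeR also called *Lum* (-0.92, adjusted p = 0.0186) and *Timp2* (-0.64, adjusted p = 0.0281). None of the 10 members had AAV-miR-34b/c and AAV-GFP libraries that did not overlap, where 1.38% of all genes tested showed no overlap. By contrast with the members, every AAV-miR-34b/c library lay below every AAV-GFP library for *Col1a1*, at 5.46 to 8.75 CPM against 14.0 to 55.1 CPM.

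Whether a pair of genes changed unlike each other was tested from their ratio within each library, for 7 pairs of members and for *Col1a1* against *Dcn*, in 3 comparisons (24 2-sided exact permutation tests of log2 ratios, p-values adjusted over the 24 by the Benjamini-Hochberg method). Of these, 11 passed. Against *Dcn*, collagen rose in AAV-GFP livers (*Col1a1/Dcn*, 2.39, exact adjusted p = 0.0140, 7 of 7 libraries above every PBS library) and fell from AAV-GFP to AAV-miR-34b/c livers (-1.37, exact adjusted p = 0.0140, 6 of 7 libraries below every AAV-GFP library). The ratio stayed above that of PBS in AAV-miR-34b/c livers by 1.02 (exact adjusted p = 0.0216). In that comparison *Col1a1* itself was not called (0.51, edgeR adjusted p = 0.167; exact permutation p = 0.00379), and *Dcn* was lower by 0.50, also not called. The 3 results for *Col1a1/Dcn* passed in every alternative run for the ratios, namely a prior count of 0.5 and each library left out in turn. Summed close pairs and the mitochondrial share as a covariate were not run on the ratios. With AAV-GFP the numerator *Col1a1* was at 14.0 to 16.2 CPM in libraries with a mitochondrial share no higher than in PBS and at 23.7 to 55.1 CPM in those above it. The denominator *Dcn* was lower in TAA libraries with a high mitochondrial share, at 261 to 316 CPM against 326 to 378 CPM with AAV-GFP and 183 to 251 CPM against 346 to 367 CPM with AAV-miR-34b/c, and the part of this share in the ratios was not tested.

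*Lum* rose against its neighbour *Dcn* by 1.08 from PBS to AAV-GFP livers (exact adjusted p = 0.0216), with 6 of 7 libraries above every PBS library, and it passed in 10 of 13 alternatives. It was lost without AAV-GFP replicate 1, 3 or 4 (adjusted p up to 0.0519). *Sparc* rose against *Dcn* by 0.77 from PBS to AAV-miR-34b/c livers (exact adjusted p = 0.0140), with 7 of 7 libraries above every PBS library. It passed in every alternative run for the ratios, which did not include summed close pairs or the mitochondrial share as a covariate. In AAV-GFP livers the same ratio rose by 0.53, but its adjusted p of 0.0496 passed in 2 of 13 alternatives. *Timp2* rose against *Timp3* by 1.14 in AAV-GFP livers (exact adjusted p = 0.0216), which was lost without PBS replicate 2 or AAV-GFP replicate 1, 3 or 4 (adjusted p up to 0.0545).

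*Fbn1* rose against *Efemp1* by 2.0 from PBS to AAV-miR-34b/c livers (exact adjusted p = 0.0216), and lost this without PBS replicate 2 (adjusted p = 0.0545). Counts were as low as 2 for *Fbn1* with PBS and for *Efemp1* with AAV-miR-34b/c, so this ratio is not an exact fold. As for *Sparc/Dcn* in AAV-GFP livers, 3 other ratios with an adjusted p just under the threshold passed in few alternatives, namely *Bgn/Dcn* and *Timp2/Timp3* between AAV-miR-34b/c and PBS livers, at 1.27 and 0.81 (exact adjusted p = 0.0496 each, in 3 and 4 of 13 alternatives), and *Fn1/Ecm1* between the vectors, at 0.66 (adjusted p = 0.0490, in 4 of 15). The other 13 ratio tests did not pass. *Bgn/Lum* differed by -0.04 between AAV-GFP and PBS livers (exact permutation p = 0.923), with SDs of 0.75 and 0.55. For this ratio 3 AAV-GFP libraries lay above and 2 below every PBS library.

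**Figure D4:**
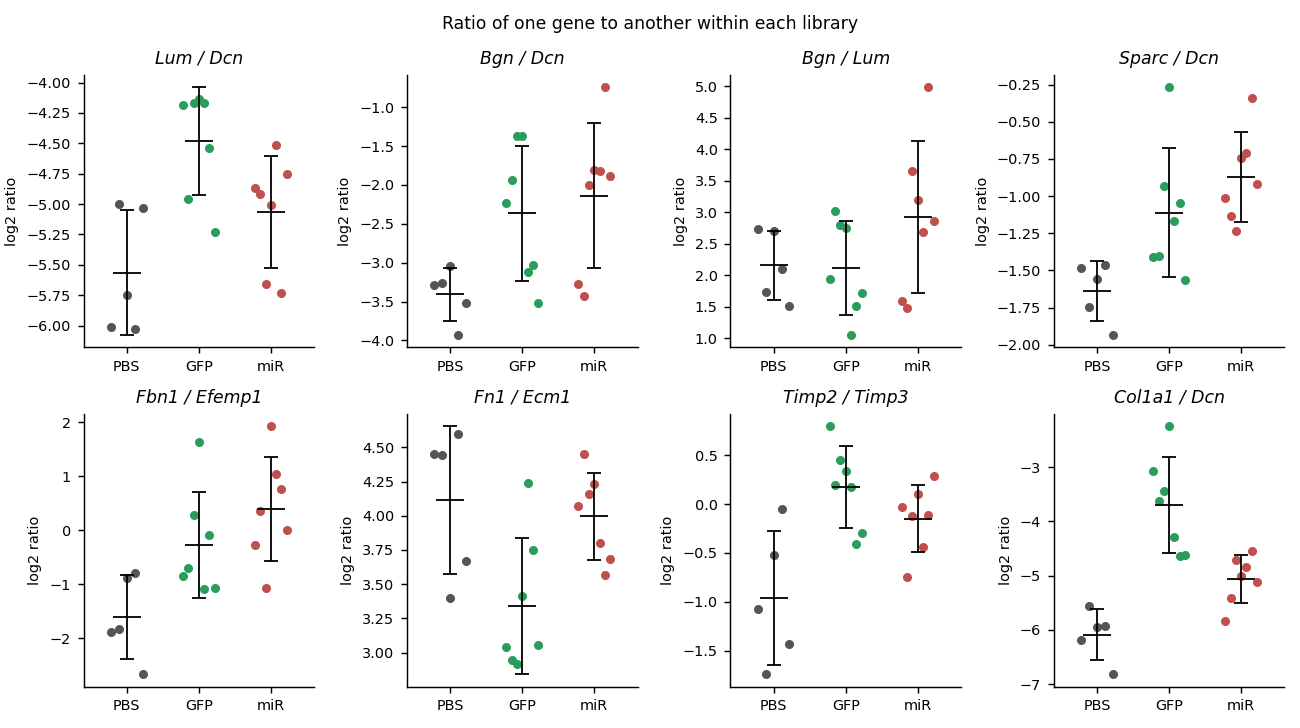
Each panel shows the log2 ratio of a pair of genes in every library of the PBS (n = 5), AAV-GFP (n = 7) and AAV-miR-34b/c (n = 7) groups, with mean and SD as a bar and whiskers. The ratio of Col1a1 to Dcn is above every PBS library in all 7 AAV-GFP libraries, and Sparc to Dcn is above every PBS library in all 7 AAV-miR-34b/c libraries.

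Because the 2 vectors given together carried miR-34b and miR-34c, respectively, the 3′ untranslated regions of the members were read for the heptamer CACTGCC, the complement of bases 2 to 8 of miR-34b-5p. The mature sequence is shown 5′ to 3′ to give the seed, in capitals, that this heptamer pairs with. It is encoded on the minus strand at chr9:51103610-51103632 (RefSeq, GRCm38.p6).

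mmu-miR-34b-5p: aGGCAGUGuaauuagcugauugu

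Of the 10 members, *Bgn* alone held the heptamer in its longest annotated 3′ untranslated region, and it did so at 2 sites, at bases 93 and 295 of a region of 1137 bases. The heptamer was present in 17.3% of the 9117 genes tested between the vectors that have an annotated 3′ untranslated region. Both sites are shown with their flanks, 5′ to 3′ on the plus strand of GRCm38, with the heptamer in capitals. The first lies at chrX:73494878-73494899 and the second at chrX:73495080-73495101.

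Bgn site 1: caatattaactCACTGCCccac
Bgn site 2: tggatagagcaCACTGCCaccg

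A match of letters is a description and not evidence of binding, and members without these letters may hold other sites.

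RefSeq promoter windows, the 250 bases before the RefSeq start, were at hand for 7 of the 10 members, and for some of them that start lies inside the gene as positioned above. They were read on both strands for TATAAA (in 12.4% of 32851 promoter windows), for GGGCGG (32.7%) and for TGANTCA, the core bound by AP-1 (6.75%). The windows of *Bgn* and *Ecm1* are shown because these genes lay on opposite sides of PBS in AAV-miR-34b/c livers and both windows lie just outside the gene. All matches are in capitals. That of *Bgn* (chrX:73483351-73483600, plus strand, GRCm38.p6) holds GGGCGG at 3 places, all read from the other strand and with the last pair overlapping, and neither of the other motifs. That of *Ecm1* (chr3:95739570-95739819, minus strand) holds each of the 3 motifs once, with TATAAA beginning 27 bases before the start.

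Bgn promoter: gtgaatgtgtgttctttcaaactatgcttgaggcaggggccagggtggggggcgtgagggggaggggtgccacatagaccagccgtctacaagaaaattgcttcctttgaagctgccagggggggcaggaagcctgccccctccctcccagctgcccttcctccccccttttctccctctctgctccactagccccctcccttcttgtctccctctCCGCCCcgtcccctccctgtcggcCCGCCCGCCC
Ecm1 promoter: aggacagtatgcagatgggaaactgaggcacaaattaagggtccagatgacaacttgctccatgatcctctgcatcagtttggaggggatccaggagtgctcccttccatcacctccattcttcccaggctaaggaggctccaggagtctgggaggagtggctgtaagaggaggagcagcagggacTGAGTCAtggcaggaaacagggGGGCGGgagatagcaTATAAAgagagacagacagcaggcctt

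The members belong to a larger set of matrix genes, which was followed through 10 lists of 161 genes that hold none of the members. Between AAV-GFP and PBS livers 82 passed the filter, and 23 were higher and 2 lower in AAV-GFP livers, 30.5% of those tested against 12.7% of all genes tested. *Col1a1*, *Serpinh1* (a collagen chaperone, 1.27, edgeR adjusted p = 0.0110) and *Loxl1* (a cross-linking oxidase, 2.16, adjusted p = 0.0155) led the fibrillar collagens and their modifying enzymes, of which 6 of 15 rose and 1 fell. *Loxl1* had only 0 to 5 counts per PBS library, so its fold is not exact. With the mitochondrial share as a covariate 5 of the 82 were called, where 146 of all 9522 genes were, and with close pairs summed 7 of 90, where 227 of all 10042 genes were, each of the list genes as higher. Of the list genes named here *Col1a1*, *Sparcl1* and *Gpc1* kept their call in both fits, *Spp1* with the covariate, and *Eln* and *Mmp15* with close pairs summed, and the others lost it in both. These shares are descriptions of lists chosen with results known.

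Relatives of several members were higher in AAV-GFP livers. *Sparcl1*, which encodes the closest relative of SPARC, rose by 2.38 (edgeR adjusted p = 5.36e-05) and *Smoc1* of the same family by 0.71 (adjusted p = 0.0371), where *Sparc* itself was not called. *Eln* (elastin, 2.73, adjusted p = 0.00292) and *Emilin1* (1.26, adjusted p = 0.0202) rose among 5 tested genes of elastic fibres and microfibrils. Among metalloproteinases 3 of 9 rose, namely *Mmp15* (1.64, adjusted p = 0.00246), *Mmp14* (1.20, adjusted p = 0.0162) and *Adamts5* (1.82, adjusted p = 0.0241). Of 13 adhesive glycoproteins *Spp1* (osteopontin) and *Vtn* (vitronectin, a plasma protein of hepatocytes) rose, by 1.31 and 0.57. Of 13 matrix receptors 5 were higher, led by *Itgb5*, *Ddr1* and *Dag1*, and 1 was lower, and *Gpc1*, a cell surface heparan sulfate proteoglycan, rose by 1.76. In the TGF-beta axis *Tgfb2*, which encodes a ligand, rose by 2.20 (edgeR adjusted p = 0.0155). *Eln*, *Adamts5* and *Tgfb2* had only 0 to 5, 0 to 7 and 0 to 6 counts per PBS library, so their folds are not exact.

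Between the vectors 7 of 73 tested genes of these lists were called, 9.59% against 3.36% of all genes tested, with 6 lower and 1 higher in AAV-miR-34b/c livers. *Col1a1*, *Serpinh1* (-1.36, edgeR adjusted p = 0.00305), *Col3a1* (-1.46, adjusted p = 0.00305), *Eln* (-1.80, adjusted p = 0.0445), *Adamts5* (-1.61, adjusted p = 0.0227) and *Smad7* (-1.19, adjusted p = 0.0106) were lower. *Eln* and *Adamts5* had only 0 to 13 and 1 to 12 counts per AAV-miR-34b/c library. The gene that was higher, *Fgl1* (2.01, adjusted p = 0.00714), encodes a protein that hepatocytes secrete in the acute phase. All 7 kept their call with the covariate, and *Col1a1*, *Col3a1* and *Serpinh1* kept it with close pairs summed.

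Against PBS, AAV-miR-34b/c livers had 14 higher and 3 lower of 67 tested genes, 25.4%, near the 21.9% of all genes tested. *Sparcl1* (2.09, edgeR adjusted p = 0.00015) and *Smoc1* (0.93, adjusted p = 0.00377) were again higher, as were *Mmp14* (1.63, adjusted p = 0.000349) and *Mmp15* (1.57, adjusted p = 0.00626). *Prelp*, a small leucine-rich proteoglycan related to the members, rose by 0.77 (adjusted p = 0.0161). The syndecan genes *Sdc1* and *Sdc3* rose by 0.88 and 0.67, and the plasma glycoprotein gene *Vtn* by 0.87 (adjusted p = 0.000855). Lower were *Itgav* (-1.29), which encodes an integrin chain, and 2 genes of the TGF-beta axis, *Tgfbr1* (-0.88) and *Smad7* (-0.91). In the same lists the receptor genes *Dag1* (0.97, adjusted p = 0.00175) and *Itga9* (0.87, adjusted p = 0.00312) were higher. So was *Ski* (0.84, adjusted p = 0.0391) of the TGF-beta axis. *Sparcl1*, *Mmp14*, *Itgav* and *Dag1* kept their call both with the covariate and with close pairs summed. *Vtn*, *Sdc1*, *Smad7* and *Itga9* kept it with the covariate, and the other genes named here for this comparison lost it in both.

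**Figure D5:**
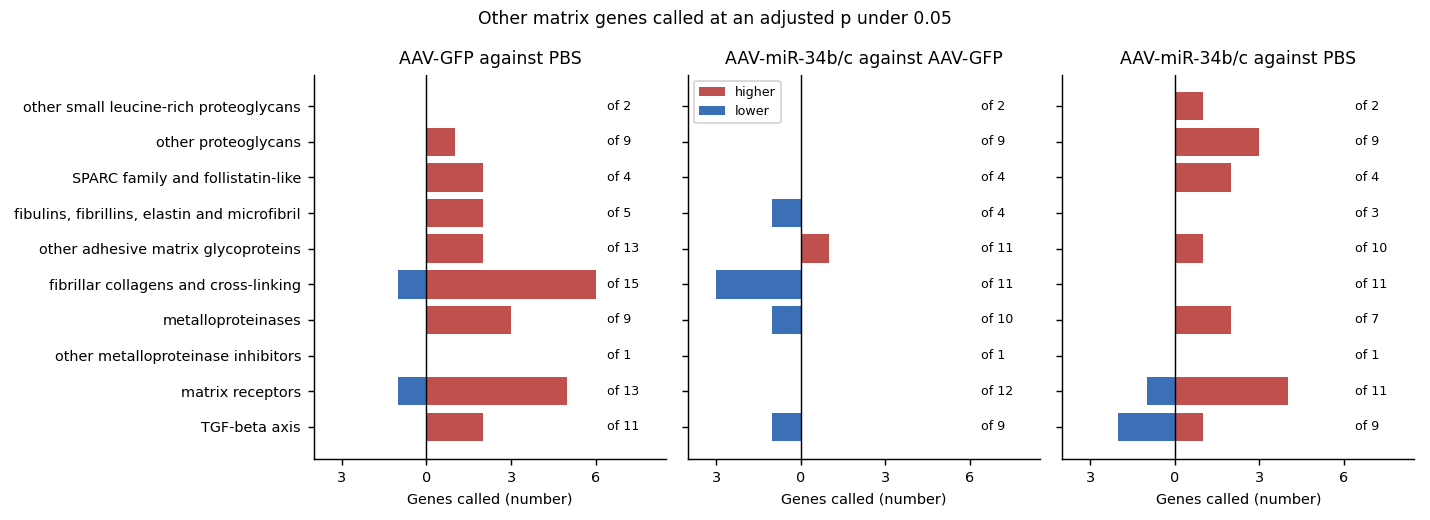
Bars give the number of genes in each of the 10 matrix lists that were called as higher (to the right) or lower (to the left) in the 3 comparisons, with the number tested at the right edge. Collagens and their modifying enzymes have 6 higher of 15 in the left panel and 3 lower of 11 in the middle panel.

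Markers of the cells that could supply these transcripts were counted beside the members. Activated stellate cell markers summed to 78.4 to 155 CPM with PBS, 136 to 309 CPM with AAV-GFP and 80.6 to 150 CPM with AAV-miR-34b/c, and 3 of 12 tested rose in AAV-GFP livers, where 12.7% of all genes tested were called. None of the 16 was at 0 in every library, and this list includes *Col1a1*. Portal fibroblast markers summed to 18.6 to 32.5 CPM with PBS, 40.6 to 66.1 CPM with AAV-GFP and 32.4 to 126 CPM with AAV-miR-34b/c, with 3 of 5 tested higher in AAV-GFP livers. Between the vectors *Dpt* and *Eln* of this list were lower (-1.62 and -1.80, edgeR adjusted p = 0.00382 and 0.0445), while the sum with AAV-miR-34b/c was mostly *Gas6*, at a mean of 54.3 CPM against 25.9 CPM with AAV-GFP. Of 11 tested quiescent stellate cell markers, a list that includes *Ecm1*, 1 fell in AAV-GFP livers. Among macrophage markers 5 of 12 were lower in AAV-GFP than in PBS livers, and neutrophil markers summed to 67.6 to 2033 CPM with AAV-miR-34b/c against 14.8 to 73.0 CPM with AAV-GFP. Between the vectors the macrophage markers *Cd5l* (0.86) and *C1qb* (0.94) and the endothelial marker *Lyve1* (1.06) were higher with AAV-miR-34b/c. Against PBS, AAV-miR-34b/c livers had lower *Adgre1* (-1.22), *Timd4* (-1.69) and endothelial *Cdh5* (-1.25), and higher *Lyve1* (1.46). The part of these cell types in the members' changes was not tested.

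Finally, the genes most alike to a member in their deviations from the group means over the 19 libraries were listed for 9 of the 10 members, 3 for each, with Pearson's r. All points share library, depth and composition. For *Bgn* they were *Pgrmc2*, *2310061I04Rik* and *Nucks1* (r = 0.91, 0.90 and 0.90), and for *Dcn* *Psmd5*, *Ndufa7* and *Sdhd* (r = 0.93, 0.92 and 0.91). For *Fn1* they were *Itih4*, *Mt2* and *Itih3* (r = 0.88, 0.83 and 0.82), which encode plasma or stress proteins made by hepatocytes. For *Sparc* they were *Apoa4*, *Dhcr7* and *Yeats4* (r = 0.86, 0.84 and 0.83). Weaker likeness was seen for *Timp2* (*Pak2*, *Bmp2k* and *Atp13a2*, r = 0.83, 0.79 and 0.78), *Ecm1* (*D230025D16Rik*, *Creb1* and *Cln6*, r = 0.83, 0.82 and 0.82) and *Timp3* (*D16Ertd472e*, *Slc25a30* and *Adgrl2*, r = 0.80, 0.75 and 0.75). For the members with few counts they were *Atp1b1*, *Srfbp1* and *Wdr45* beside *Lum* (r = 0.77, 0.77 and 0.77) and *Aqp9*, *Slc25a42* and *Ube2e3* beside *Efemp1* (r = 0.74 each). None of the genes named here is a member, and none is a collagen.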

How the data were processed

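The authors counted reads of 3′ libraries (single-end reads of 100 bases; the labels name the QuantSeq kit, and the study's methods differ from them on the library service and on the amount of RNA) per gene and deposited raw counts; the submitters' processing notes name STAR and mm10, while annotation release, strandedness and molecular identifiers are not given in the sources used here. Positions are from GENCODE annotation of GRCm38. Every column was mapped to a mouse by its name. Genes were filtered with filterByExpr (minimum count 10, minimum total 15), scaled by TMM and tested for each pair of groups with the quasi-likelihood test of edgeR 4.0.16 (R 4.3.3), adjusted by Benjamini-Hochberg over all genes tested and called under 0.05. The script was tested on simulated data. Single members and log2 ratios were also compared with 2-sided exact permutation tests on log2 CPM (prior count 2). Alternatives used limma 3.58.1, DESeq2 1.42.0, other filters and scalings, a replicate block, summed close pairs, libraries left out and, chosen after seeing the data, the mitochondrial share as a covariate. Members with few counts are the least precise. All members are named, with Col1a1 as a reference, up to 3 called genes per list with the lowest adjusted p, and the 3 genes most alike to a member, not all of which are reported here. The members and lists were chosen with earlier results of these data known.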

Additional observations from a re-analysis of the deposited data

Results flagged for a closer look

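The rule used for outliers flagged 1 library in depth. Replicate 5 of AAV-GFP summed to 4383805 counts, against 3239809 in the second deepest library of its group. The deepest libraries of the other groups also lay well above the next but were not flagged. They were PBS replicate 4, at 4145454 against 2892158, and AAV-miR-34b/c replicate 6, at 5208405 against 3828594. Totals and members' levels were examined in each group, 33 sets of values in all, and 1 held a flagged library, where chance gives about 1.65. In this library the members' levels after scaling lay within the range of the other AAV-GFP libraries, except for Lum and Fn1, which were the highest of the group at 17.5 and 726 CPM.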

How the results depend on the processing

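Of the 9, 10 and 9 members tested between AAV-GFP and PBS, between the vectors and between AAV-miR-34b/c and PBS, 4, 0 and 4 were called. With the mitochondrial share as a covariate, chosen after seeing the data, 1, 2 and 2 were called, and with close pairs summed 1, 0 and 1. Calls over all genes moved too, from 1212, 311 and 2037 to 146, 789 and 1099 with the covariate and to 227, 87 and 331 with close pairs summed. Between the vectors, scaling by library size alone called 3 (Dcn, Lum and Timp2) and limma-voom 2, among 624 and 813 of all genes. That scaling moved the median log2 fold change of all genes to 0.05, -0.20 and -0.13 in the 3 comparisons. Leaving out 1 library gave 1 to 4, 0 to 1 and 3 to 5 calls, 11 to 15 of the exact permutation tests of members (13 with all libraries) and 5 to 12 of the ratio tests (11 with all libraries). Ratio calls numbered 5 without PBS replicate 2 or AAV-GFP replicate 1, 3 or 4, and 7 without AAV-GFP replicate 2 or AAV-miR-34b/c replicate 3, 4, 5 or 7. The cause of these shifts was not tested. No called result changed sign in any alternative run. Shared replicate numbers did not pair the mice, since same-numbered libraries correlated at -0.28 to 0.28 and were each other's best match in 2 of 5, 1 of 7 and 0 of 5 cases. With the replicate number as a block 4, 0 and 1 members and 3136, 142 and 945 of all genes were called. Bgn, Efemp1 and Ecm1 then lost their call between AAV-miR-34b/c and PBS. Their differences were 0.52, -1.78 and -0.63 with the block (edgeR adjusted p = 0.161, 0.065 and 0.0521) and 0.83, -1.59 and -0.55 without it. Replicates 6 and 7 of both vectors had no PBS library of the same number, so in that fit they did not inform the differences from PBS. Blocking and the loss of these libraries cannot be told apart there. Low counts limit Lum, Fbn1 and Efemp1 most.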
